A study of Mus musculus with 8 samples.

Results

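Syndecans, glypicans and Cd44 are cell-surface proteins that carry long sugar chains or bind them, and 8 of their genes were followed in mouse embryonic stem cells in which JUN was induced. The genes were chosen by name from the table of 50600 rows: the syndecans Sdc1, Sdc2, Sdc3 and Sdc4, the glypicans Gpc1, Gpc3 and Gpc4, and Cd44, each with 1 row. RNA-seq was available for 8 libraries, 2 in each of 4 groups. The cells were OG2 embryonic stem cells of genotype c-Jun_TetOn_mESC and of a strain given as 1/2 129SVJ, with 3/8 from C57B6 and 1/8 from CBA, at passage P12, cultured without feeders in 2i medium with serum and LIF. All 4 groups received 2 µg/ml doxycycline, which switches on the Jun transgene, so every group carries induced JUN and no group without doxycycline was analysed here. The DMSO group received the solvent, the PFI-3 group an inhibitor of the BRG1 bromodomain, the BI-9564 group an inhibitor of the BRD7 and BRD9 bromodomains, and the P+B group both compounds. The labels give 6 h of treatment, a legend in the supplement of the study describes doxycycline induction that was longer than the time with the compounds, and the dose of each compound in these libraries was not settled from the sources used here. The labels do not say whether the 2 libraries of a group came from separate cultures, so p-values measure only the spread between these libraries, which may be technical. The labels also do not say whether the line is 1 clone. The comparisons ask how blocking these bromodomains, which bind acetylated histones, alters expression in JUN-induced cells.

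Syndecans span the membrane and carry heparan sulfate, and some also carry chondroitin sulfate, while glypicans are held on the outer leaflet by a lipid anchor. Their heparan sulfate chains bind growth factors, morphogens and matrix proteins and present them to signaling receptors. Cd44 is the main receptor for hyaluronan, a long sugar chain of the matrix, and is abundant in many mesenchymal, blood and tumour cells. In embryonic stem cells heparan sulfate is known to be needed for the response to FGF, and so for leaving the pluripotent state.

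The values are TPM, which are scaled per transcript length and per library, so levels of different genes can be compared; they were deposited as whole numbers, and a listed 0 therefore means only a value too low to be written as 1. Sequencing depth cannot be read from them, so no counting error is given. The libraries summed to between 991574 and 991897, and each held between 10285 and 10451 genes at 5 or more. Jun stood between 1569 and 3011 in all 8 libraries. It was at 1970 and 2877 under DMSO, 1570 and 2227 under PFI-3, 2071 and 3011 under BI-9564, and 1569 and 2159 under P+B. Within each replicate number it was lower under PFI-3 and P+B than under DMSO and BI-9564. Whether this bears on the differences between treatments was not tested. The 10 embryonic stem cell markers examined all had a mean of at least 5 and summed to between 3566 and 5484 per library, led by Dppa5a. Of 10 fibroblast or feeder markers, 5 were at 0 in every library and the summed level was between 2 and 9. The mesoderm or neural list summed to between 18 and 30, of which Nes gave most. Primitive endoderm markers summed to between 360 and 645, of which Sparc gave most while Gata6, Sox17 and Foxa2 were near 0, and trophoblast markers to between 55 and 131, of which Krt18 gave most.

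The member genes lie on 6 chromosomes in GRCm38 (mm10), by GENCODE M21. Sdc1 is at chr12:8771323-8793715 on the plus strand and Sdc2 at chr15:32920723-33034935 on the plus strand. Sdc3 is at chr4:130792537-130826319 on the plus strand and Sdc4 at chr2:164424247-164443887 on the minus strand. Cd44 is at chr2:102811141-102901665 on the minus strand. Gpc1 is at chr1:92831645-92860779 on the plus strand, where Ankmy1 overlaps it on the opposite strand. Gpc4, at chrX:52053021-52165252, and Gpc3, at chrX:52272426-52613950, are neighbours on the minus strand of the X chromosome, 107.2 kb apart with 0 protein-coding genes between them. Antisense genes also overlap the spans of Gpc1, Gpc3 and Sdc3. Whether their exons overlap was not examined, and how the counting treated strand is not given in the sources used here. Where exons overlap, reads of these genes and of their opposite-strand partners may not be told apart.

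Since JUN binds DNA as part of AP-1, the 250 bases before the RefSeq start of each member were searched for its motif. RefSeq promoters on GRCm38.p6 were matched for 6 of the 8 members, and Sdc2 and Gpc1 were not matched. RefSeq and GENCODE do not place every start at the same base. The windows of Cd44, Gpc3 and Sdc3 lie outside the GENCODE gene, while 73 bases of the Sdc1 window and all 250 of the Gpc4 window lie in GENCODE exons of these genes. The Sdc4 window lies inside the GENCODE gene, which has a longer transcript, and shares 0 bases with its exons. The sequences of the highest member, Sdc4, and of Cd44, one of the 2 lowest, are shown because their levels and their motif content differ. They are written 5′ to 3′ on the gene's strand, the minus strand for both, with each GC box (GGGCGG on either strand) in capitals. They lie at chr2:164443189-164443438 for Sdc4 and chr2:102901666-102901915 for Cd44.
Sdc4: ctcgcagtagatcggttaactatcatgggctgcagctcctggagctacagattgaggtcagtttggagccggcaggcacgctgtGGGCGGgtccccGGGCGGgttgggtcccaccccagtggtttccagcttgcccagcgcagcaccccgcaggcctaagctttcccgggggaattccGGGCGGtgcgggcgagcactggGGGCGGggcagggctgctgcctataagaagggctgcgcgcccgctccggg
Cd44: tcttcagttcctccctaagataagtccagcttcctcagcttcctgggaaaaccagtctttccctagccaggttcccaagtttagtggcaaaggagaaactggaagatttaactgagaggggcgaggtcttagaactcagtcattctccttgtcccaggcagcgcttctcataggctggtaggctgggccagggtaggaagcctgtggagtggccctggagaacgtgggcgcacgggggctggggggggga
The Sdc4 sequence holds 4 GC boxes and 68.0% G or C. The Cd44 sequence holds 0 GC boxes and 56.4% G or C, against a median of 52.4% over the 32851 promoters of the same length. A GC box was present in 5 of 6 member promoters, all but Cd44, and in 32.74% of all promoters. Sdc3, the other of the 2 lowest members, held 3 GC boxes and 76.4% G or C. The pair shown therefore does not stand for a link between motif content and level. The AP-1 motif TGANTCA, searched on both strands, was in 0 of 6 member promoters and in 6.749% of all promoters, and the related CRE motif TGACGTCA was in 0 of 6 and in 1.546%. These are matches of letters in a short window and say nothing about more distant sites.

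The members comprised 1 gene of high level, 5 of low to moderate level and 2 near 0. Sdc4, a syndecan of focal adhesions, had a mean of 83.9 TPM ± 28.1 (SD, n = 8 libraries) and stood above 80.5% of the tested genes. Sdc1, the syndecan typical of epithelia, had a mean of 24.9 TPM ± 4.39 (SD, n = 8) and stood above 43.4%. The lowest Sdc4 value, 50, was above the highest Sdc1 value, 32. Sdc4 made up between 58.04% and 78.16% of the summed syndecan value in each library, and Sdc1 between 14.94% and 28.57%. The glypicans and Sdc2 followed closely on each other. Gpc1 had a mean of 16.5 TPM ± 3.34, Gpc4 of 15.9 ± 4.32, Gpc3 of 13.2 ± 3.77 and Sdc2 of 11.8 ± 1.83 (SD, n = 8 each). In this order they stood above 30.2%, 29.1%, 23.6% and 19.9% of the tested genes. The ranges of neighbours in this order overlapped from Sdc1 down to Sdc2, so their order is not fixed by these libraries.

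Sdc3, the syndecan typical of neurons, and Cd44 were barely detected. Sdc3 was listed at 2 and 1 in the DMSO libraries, 2 and 0 under PFI-3, 0 and 0 under BI-9564 and 0 and 2 under P+B. Cd44 was listed at 0 and 1 in each of the DMSO, PFI-3 and BI-9564 groups and at 0 and 0 under P+B. At this resolution no difference between groups can be read for either, and no fold change is given. They had a mean below 5 and were not tested, so 6 of the 8 members were tested among 10222 genes.

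**Figure D1:**
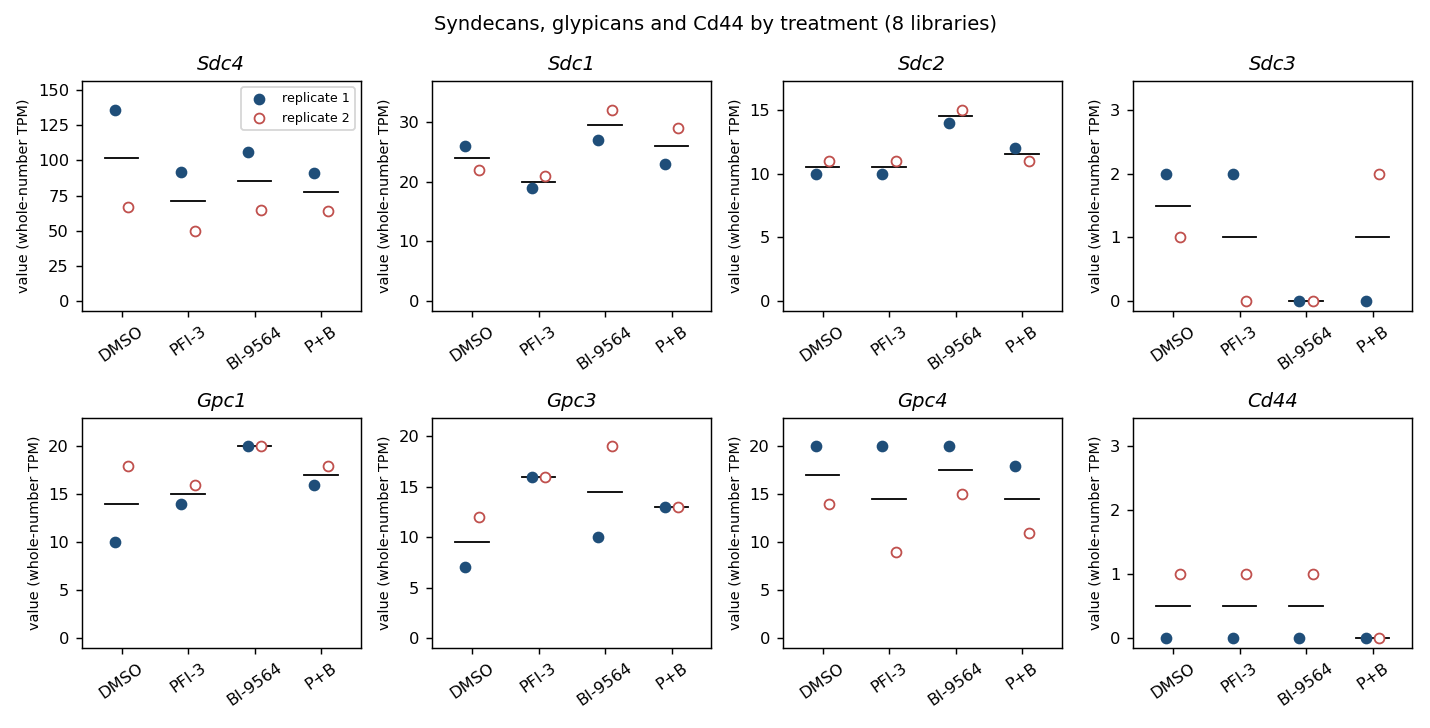
Values of the 8 members (vertical axis, TPM as whole numbers, each panel with its own scale from 0) in the 4 treatment groups (horizontal axis), with replicate 1 filled, replicate 2 open and the mean of both as a line. Sdc4 lies between 50 and 136 with replicate 1 above replicate 2 in every group, and Sdc3 and Cd44 stay at 2 or below.

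Treatment with P+B, PFI-3 or BI-9564 brought no member past the thresholds against DMSO. A gene was called changed at an adjusted p under 0.05 in limma, with Benjamini-Hochberg adjustment over all 10222 genes, and a fold change of at least 1.5; fold changes are of (value + 1) on the log2 scale, which understates the change of low genes. With P+B against DMSO 0 of 6 tested members were called, against 4% of all tested genes. With PFI-3 against DMSO the count was 0 of 6, against 0% of all tested genes, of which 694 had an unadjusted p under 0.05. With BI-9564 against DMSO it was 0 of 6, against 0.108%. The median log2 fold change of the 6 members was 0.11 under P+B, −0.12 under PFI-3 and 0.36 under BI-9564, beside 0.06, 0.02 and 0.02 over all tested genes. The 3 comparisons share the DMSO libraries. With the replicate number as a block, 0 of 6 members were called in each of these comparisons too, against 7.02%, 0% and 1.53% of all tested genes. In bulk RNA, fewer cells that express a gene and less RNA per cell cannot be told apart.

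Sdc4 varied as widely within groups as between them. Sdc4 stood at 136 and 67 in the DMSO libraries, 92 and 50 under PFI-3, 106 and 65 under BI-9564, and 91 and 64 under P+B. All groups overlapped. The log2 fold change of Sdc4 was −0.32 under P+B (SE 0.40, 95% interval −1.24 to 0.60, limma adjusted p = 0.685), −0.49 under PFI-3 (SE 0.40, adjusted p = 0.898) and −0.20 under BI-9564 (SE 0.40, adjusted p = 0.857). With the replicate block, which takes out the difference between the 2 numbers, the SE fell to 0.125 and the intervals of Sdc4 lay below 0 under P+B (−0.61 to −0.03) and PFI-3 (−0.78 to −0.20), yet the limma adjusted p was 0.139 and 0.228. Within replicate 2 the DMSO value of 67 was close to the 65 under BI-9564 and the 64 under P+B. Without DMSO replicate 1, the highest library, Sdc4 was refitted without the block. Its log2 fold change turned to 0.186 under P+B, 0.0183 under PFI-3 and 0.305 under BI-9564. DMSO then rested on replicate 2, the lower number for Sdc4 in every group, so this refit cannot separate treatment from replicate number. Within each number the DMSO value was the highest, by little in replicate 2. No change passed the thresholds in either fit, so no direction is given. A 1.5-fold change of Sdc4 in either direction lies within the interval of the fit without the block for P+B and BI-9564, and a 1.5-fold fall within that for PFI-3.

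Sdc1 was at 26 and 22 under DMSO, 19 and 21 under PFI-3, 27 and 32 under BI-9564, and 23 and 29 under P+B. The BI-9564 libraries were above both the DMSO and the PFI-3 libraries, and the PFI-3 libraries below both the DMSO and the BI-9564 libraries. Such separations are descriptions, here and below, and the share of all tested genes that separate alike was not counted. For 2 groups of 2 libraries an exact permutation test gives no p under 0.333. Against DMSO the log2 fold change of Sdc1 was 0.29 under BI-9564 (95% interval −0.11 to 0.69, limma adjusted p = 0.478), −0.25 under PFI-3 (−0.65 to 0.15, adjusted p = 0.863) and 0.11 under P+B (−0.29 to 0.51, adjusted p = 0.760). Sdc2, which is prominent in mesenchymal cells, was at 10 and 11 in both the DMSO and the PFI-3 groups, at 14 and 15 under BI-9564 and at 12 and 11 under P+B. The BI-9564 values of Sdc2 did not overlap those of any other group. The log2 fold change with BI-9564 was 0.43 (SE 0.188, 95% interval 0.001 to 0.86), at an unadjusted p of 0.0496 and a limma adjusted p of 0.335. Values of this level were written in steps of 1 TPM.

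The glypicans were of low to moderate level, and none was called. Gpc1, the most widely expressed glypican, was at 10 and 18 under DMSO, 14 and 16 under PFI-3, 20 and 20 under BI-9564, and 16 and 18 under P+B. Both BI-9564 libraries were above every other library. The log2 fold change of Gpc1 under BI-9564 was 0.54 (SE 0.254, 95% interval −0.04 to 1.12, limma adjusted p = 0.366). With the replicate block its interval was 0.04 to 1.04 (limma adjusted p = 0.206). Gpc3, a regulator of body size through Hedgehog and other signals, was at 7 and 12 under DMSO, 16 and 16 under PFI-3, 10 and 19 under BI-9564, and 13 and 13 under P+B. The PFI-3 and P+B libraries were above both DMSO libraries, while the BI-9564 pair overlapped them. With PFI-3 the log2 fold change of Gpc3 was 0.74 (SE 0.322, 95% interval −0.002 to 1.48, limma adjusted p = 0.737), and with P+B it was 0.46 (SE 0.322, adjusted p = 0.443). The replicate block gave intervals of 0.13 to 1.35 under PFI-3 (limma adjusted p = 0.353) and −0.155 to 1.07 under P+B (limma adjusted p = 0.291). Leaving out DMSO replicate 1, without the block, took the log2 fold changes to 0.387 under PFI-3 and 0.107 under P+B. Gpc4, the neighbour of Gpc3 and a modulator of Wnt and FGF signals, was at 20 and 14 under DMSO, 20 and 9 under PFI-3, 20 and 15 under BI-9564, and 18 and 11 under P+B. All groups overlapped for Gpc4. Its log2 fold change was −0.23 under P+B, −0.29 under PFI-3 and 0.05 under BI-9564 (SE 0.379 each), and the limma adjusted p was at least 0.759 for each. The sign of Gpc4 under BI-9564 turned when each library was centred on its median (−0.000751), so no direction is given for it.

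**Figure D2:**
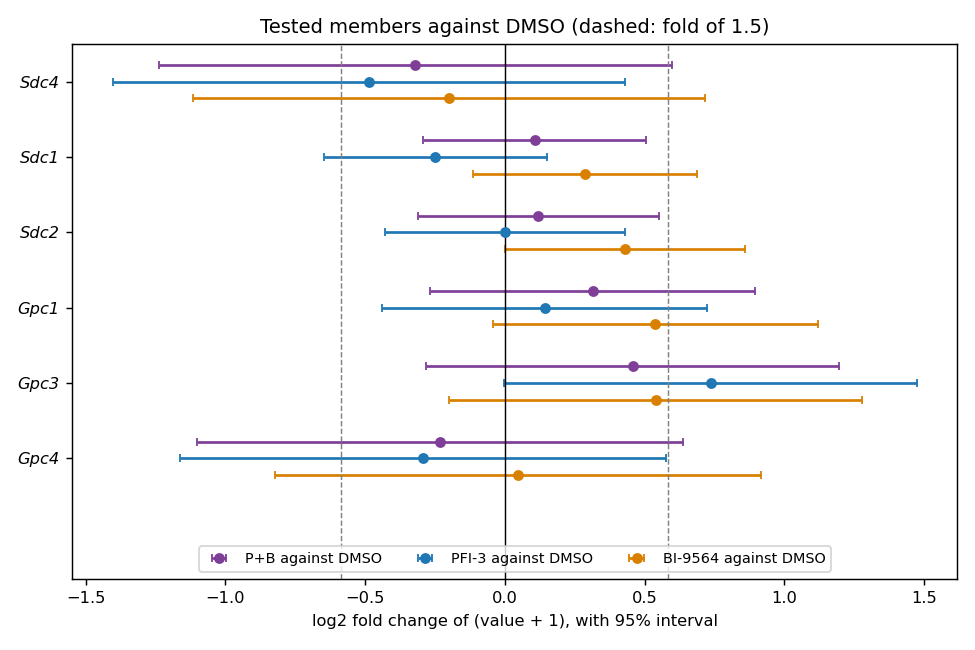
Log2 fold change of (value + 1) against DMSO (horizontal axis) for the 6 tested members (vertical axis), with 95% intervals from the fit without a block, by treatment in colour. Dashed lines mark a fold of 1.5, and every interval reaches 0 or comes within 0.01 of it.

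The compounds were also compared with each other. With P+B against PFI-3, 0 of 6 members were called, against 1.31% of all tested genes, and with P+B against BI-9564 0 of 6, against 0.196%. In the latter comparison the log2 fold changes of the 6 members ran from −0.31 for Sdc2 to −0.08 for Gpc3. Their median was −0.20, beside 0.02 over all tested genes. None of these 6 differences was called, and the lowest limma adjusted p was 0.775, for Sdc2. Leaving out 1 library, without the block, took Sdc4 up to 0.229, Gpc3 up to 0.348 and Gpc4 up to 0.0518, while Sdc1, Sdc2 and Gpc1 stayed below 0. With BI-9564 against PFI-3, 0 of 6 were called, against 0.108%. With the replicate block the count stayed at 0 of 6 in these 3 comparisons, against 3.43%, 0.802% and 1.48%. Sdc1 had the lowest p of the members between BI-9564 and PFI-3, with a log2 fold change of 0.54 (SE 0.174, unadjusted p = 0.0147, limma adjusted p = 0.251 without the block and 0.127 with it), the latter being the lowest adjusted p of any member in any comparison between treatments. PFI-3 and BI-9564 act on different bromodomain proteins, and for Sdc1 their differences from DMSO had opposite signs, neither of which passed. An interaction term tested whether the log2 fold changes of the separate compounds add up to that of P+B. This reading needs each compound at the same dose in P+B as alone, which was not settled from the sources used here. For that, 0 of 6 members were called in either fit, against 0% of all tested genes, of which 333 had an unadjusted p under 0.05 without the block. The largest interaction was that of Gpc3, at −0.82 (SE 0.456, 95% interval −1.87 to 0.22, limma unadjusted p = 0.108). Between 2 groups of 2 libraries, the smallest p of an exact permutation test for 1 gene is 0.333. That bound is not for the interaction, which uses all 8 libraries.

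Sdc4 differed by replicate number, in the same direction under every treatment. This was examined after the data were seen. Sdc4 was higher in replicate 1 than in replicate 2 in 4 of 4 groups, by a ratio of 2.03 under DMSO, 1.84 under PFI-3, 1.63 under BI-9564 and 1.42 under P+B. The log2 difference, replicate 2 minus replicate 1 within groups, was −0.77 (SE 0.0881, limma adjusted p = 0.00566). Of the 6 tested members 1 was called, against 1.32% of all tested genes. The call of Sdc4 was lost without both PFI-3 libraries (adjusted p = 0.0747), without both BI-9564 libraries (0.0640) and without a trend in limma (0.0615), and the difference then stayed between −0.79 and −0.74. Gpc4 was also lower in replicate 2 in 4 of 4 groups, with a log2 difference of −0.65 (SE 0.143) and a limma adjusted p of 0.0529. The same direction in 4 of 4 groups was found for 23.9% of all tested genes. The other 4 tested members had differences between 0.06 and 0.39, and none of them was called.

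What the replicate numbers stand for is not given in the labels. In the same libraries the summed embryonic stem cell markers were higher in replicate 1 in 4 of 4 groups (5237 against 4028 under DMSO and 4711 against 3725 under P+B). Dppa5a gave most of this gap under DMSO (2925 against 1925). Without Dppa5a the sums were 2312 against 2103 under DMSO and 2123 against 1838 under P+B. Pou5f1 gave most of these sums and was at 1273 against 1281 under DMSO. Tdgf1 was at 82 against 84 under P+B. Every other marker of the list was higher in replicate 1 in 4 of 4 groups, such as Nanog (71 against 40 under DMSO) and Zfp42 (227 against 132). The same direction in 4 of 4 groups held for 23.9% of all tested genes. Sparc, which made up most of the primitive endoderm sum, was also higher in replicate 1 in 4 of 4 groups (612 against 466 under DMSO), as was Krt18, which made up most of the trophoblast sum (103 against 89). Without Sparc the primitive endoderm sum was 33 against 33 under DMSO, and without Krt18 the trophoblast sum was 28 against 24, while under P+B these were 27 against 34 and 34 against 35. Jun was lower in replicate 1 in 4 of 4 groups, at 1970 against 2877 under DMSO and 1569 against 2159 under P+B. Their part in the Sdc4 difference was not tested. The fibroblast or feeder markers showed no such split, at 9 against 6 under DMSO and 8 against 8 under P+B.

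**Figure D3:**
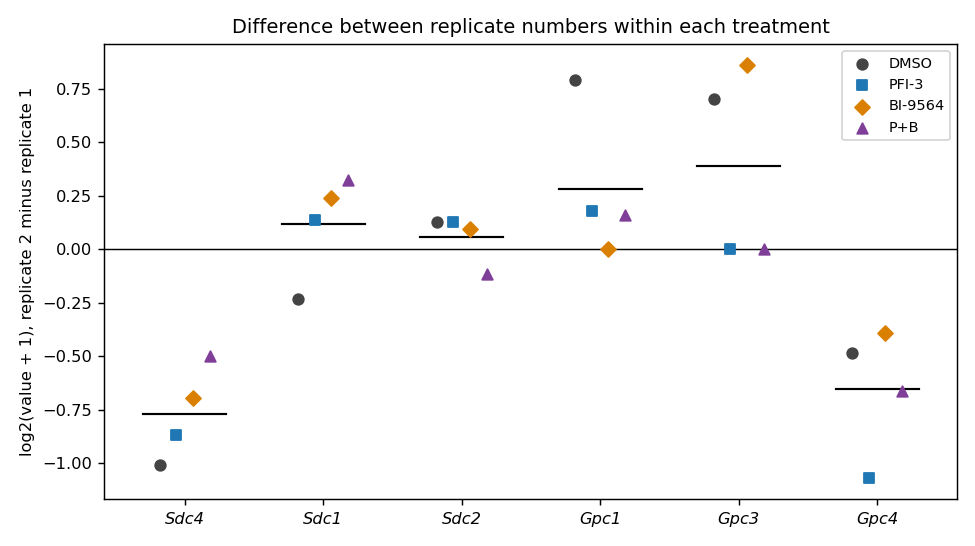
Difference in log2(value + 1) between replicate 2 and replicate 1 (vertical axis) for the 6 tested members (horizontal axis), with 1 point for each treatment group and the mean of the 4 as a line. All 4 points lie below 0 for Sdc4 (mean −0.77) and Gpc4 (mean −0.65), and the other members have a mean between 0.06 and 0.39.

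The genes that build, modify, bind and release these proteoglycans were examined as 9 lists of 129 names, of which 128 had a row, 22 were at 0 in all libraries and 69 were tested. With P+B against DMSO, 5 of the 69 fell and 1 rose, beside 2.72% of all tested genes that fell and 1.28% that rose. Over all tested genes 131 rose and 278 fell, which became 81 and 305 with quantile normalization and 86 and 401 with median centring, and among the 69 the split was then 1 higher and 6 lower, and 1 higher and 8 lower. The 5 that fell were Hbegf, Sdcbp2, Src, Furin and Mmp14, and the 1 that rose was Chpf. The number called was 1 without DMSO replicate 1 or either P+B library, 2 without DMSO replicate 2, 3 without either PFI-3 library and 4 without either BI-9564 library, and it was 0 in a fit of the DMSO and P+B libraries alone, where 20 had an unadjusted p under 0.05 in limma. The median log2 fold change of the 69 was 0.06, beside 0.06 over all tested genes.

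Of the ligands, Hbegf, a growth factor of the EGF family that binds heparan sulfate, was at 45 and 32 under DMSO, 22 and 15 under PFI-3, 19 and 15 under BI-9564, and 8 and 6 under P+B. All treated libraries were below both DMSO libraries, and the P+B libraries were the lowest. The log2 fold change of Hbegf with P+B was −2.30 (SE 0.258, limma adjusted p = 0.00311). Without DMSO replicate 1 its adjusted p was 0.0535. Of the 6 tested ligands Hbegf alone was called, and their median log2 fold change was −0.33. Spp1, or osteopontin, a ligand of Cd44 and integrins, was at 578 and 446 under DMSO, 565 and 414 under PFI-3, 364 and 297 under BI-9564, and 347 and 280 under P+B. The BI-9564 and P+B libraries were all below the DMSO and PFI-3 libraries. Against DMSO its P+B log2 fold change was −0.70, which was called with the replicate block only (SE 0.0575, limma adjusted p = 0.000686). Mdk, or midkine, which binds heparan and chondroitin sulfate, ranged from 230 to 314 and Fn1, fibronectin, from 209 to 247, and neither was called.

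Of the 12 tested cytoplasmic partners, 2 fell with P+B. Sdcbp2, or syntenin-2, a PDZ protein that binds syndecan tails, was at 13 and 30 under DMSO, 10 and 10 under PFI-3, 4 and 6 under BI-9564, and 4 and 2 under P+B. Every treated library was below both DMSO libraries, which themselves lay far apart. Against DMSO its P+B log2 fold change was −2.43 (SE 0.422, limma adjusted p = 0.0191), and the call was lost on leaving out any of 5 of the 8 libraries in turn (DMSO replicate 2 and either library of PFI-3 or P+B), with an adjusted p of up to 0.141. Src, a kinase that phosphorylates syndecan tails, was at 63 and 60 under DMSO, 59 and 51 under PFI-3, 37 and 40 under BI-9564, and 33 and 36 under P+B. The BI-9564 and P+B libraries were all below the DMSO and PFI-3 libraries. The log2 fold change of Src with P+B was −0.82 against DMSO (SE 0.123, limma adjusted p = 0.0103) and −0.66 against PFI-3 (SE 0.123, adjusted p = 0.0474). The first was lost without any single library of DMSO or P+B (adjusted p of up to 0.0861) and the second without any single library (up to 0.233). The most abundant partners, Gipc1 at 113 to 146, and Rdx and Ezr, which link Cd44 to actin, at 116 to 135 and 115 to 140, were not called. Msn, or moesin, of the same family of linkers, was at 106 and 96 under DMSO and 70 and 70 under P+B, a log2 fold change of −0.52 at a limma adjusted p of 0.0242, under the fold threshold. Sdcbp, or syntenin-1, the better known partner, was at 50 and 39 under DMSO and 54 and 47 under P+B and was not called.

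Of the 9 tested sheddases and releasing enzymes, 2 fell. Furin, a convertase that activates Adam and Mmp enzymes, was at 50 and 55 under DMSO, 42 and 39 under PFI-3, 45 and 43 under BI-9564, and 35 and 31 under P+B. Mmp14, a membrane metalloprotease that cleaves Cd44 and syndecans, was at 16 and 15 under DMSO, 15 and 13 under PFI-3, 7 and 9 under BI-9564, and 8 and 6 under P+B. For both, the P+B libraries were below both DMSO libraries. With P+B the log2 fold change of Furin was −0.65 (SE 0.123, limma adjusted p = 0.0252) and that of Mmp14 −1.06 (SE 0.229, adjusted p = 0.0414), and both calls were lost on leaving out any 1 of the 8 libraries, with an adjusted p of up to 0.146 for Furin and 0.183 for Mmp14. Adam10, which cleaves Cd44, was not called, at 24 and 22 under DMSO and 34 and 30 under P+B (log2 fold change 0.46, limma adjusted p = 0.103).

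Of the 9 tested genes of chondroitin sulfate synthesis, 1 rose. Chpf, a chondroitin polymerizing factor, was at 29 and 34 under DMSO, 37 and 39 under PFI-3, 48 and 43 under BI-9564, and 58 and 56 under P+B. The 4 groups did not overlap, and P+B was the highest. The log2 fold change of Chpf with P+B was 0.84 (SE 0.128, limma adjusted p = 0.0105), and the call was lost without DMSO replicate 1 or either P+B library (adjusted p of up to 0.0831). Dse, a dermatan sulfate epimerase, and Chst12, a chondroitin sulfotransferase, ranged from 28 to 48 and from 22 to 33 and were not called.

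The enzymes that start and extend heparan sulfate were expressed and none was called. In the linker and chain list 12 of 16 genes were tested, and 0 passed the thresholds under P+B. Of the 12, 11 had a log2 fold change above 0, with a median of 0.23, beside 57.6% and 0.06 over all tested genes. With median centring this became 9, with a median of 0.14, beside 45.9% and −0.03. Ext2, a subunit of the heparan sulfate polymerase, ranged from 60 to 72, Ugdh, which makes the sugar donor UDP-glucuronic acid, from 29 to 47, and Xylt2, which attaches the first xylose, from 20 to 32. Of 6 tested genes of sulfation and editing, 0 were called; the extracellular sulfatase Sulf2 was at 83 and 90 under DMSO and 113 and 111 under P+B (log2 fold change 0.37, limma adjusted p = 0.0886), Hs6st1 ranged from 68 to 100 and Glce from 19 to 29. Of 4 tested other heparan sulfate proteoglycans, 0 were called. Agrn, or agrin, ranged from 99 to 146, and Col18a1 from 69 to 99. Hspg2, or perlecan, was at 139 and 133 under DMSO and 102 and 104 under P+B, a log2 fold change of −0.40 at a limma adjusted p of 0.0422, under the fold threshold.

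Around Cd44 the hyaluronan list was sparse. Of its 17 names 4 genes were tested and 0 were called. The synthases Has1, Has2 and Has3 were at 2 or below in every library. Hmmr, a hyaluronan-binding protein of the mitotic spindle, ranged from 58 to 69, the hyaluronidase Hyal2 from 44 to 65, and the cell-surface hyaluronidase Tmem2 from 18 to 28. Of 7 tested regulators of Cd44 splicing 0 were called. Ptbp1 ranged from 586 to 795, Hnrnpl from 601 to 734 and Hnrnpm from 338 to 390.

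**Figure D4:**
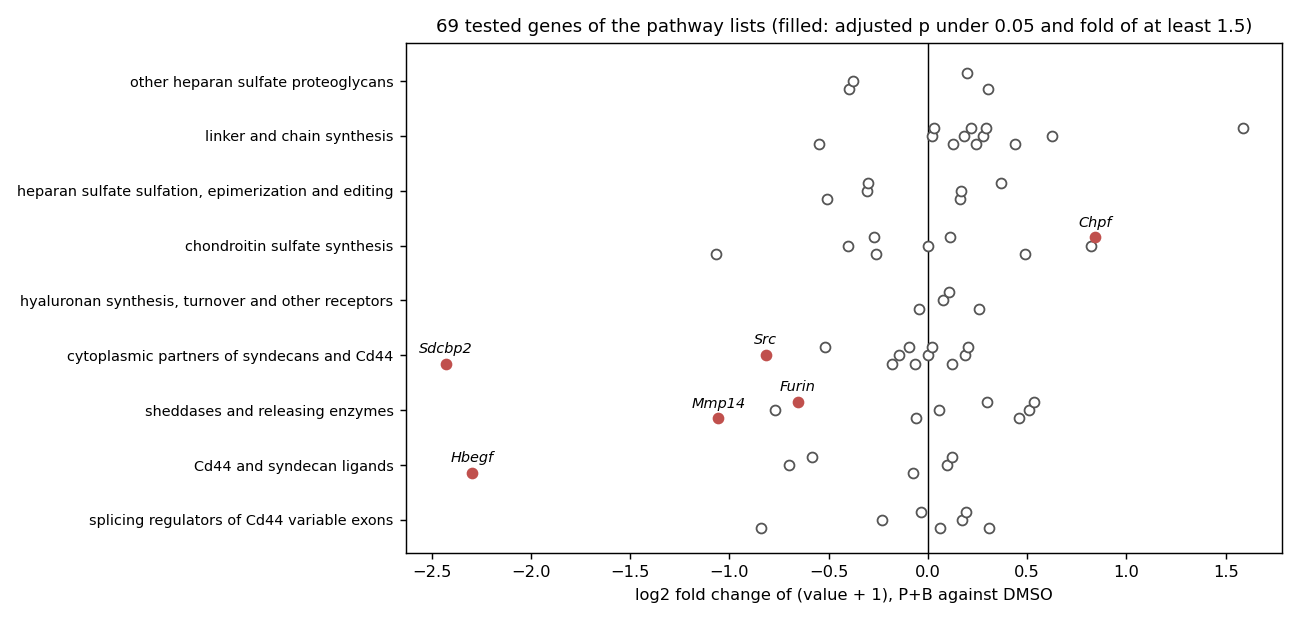
Log2 fold change of (value + 1) with P+B against DMSO (horizontal axis) for the 69 tested genes of the 9 lists (vertical axis, 1 list a row, points shifted up or down only to be seen). The 6 filled and named points passed both thresholds, 5 below 0 and Chpf above 0.

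With the replicate block, 9 of the 69 genes were called for P+B against DMSO, beside 7.02% of all tested genes. The 6 above were among them, and Spp1, the chondroitin sulfotransferase Chst15 (log2 fold change −1.07, limma adjusted p = 0.0432) and Esrp2 (−0.84, adjusted p = 0.0398), a splicing regulator of Cd44, were added. For BI-9564 against DMSO, 0 were called without the block and 3 with it, namely Hbegf (−1.12), Src (−0.66) and Spp1 (−0.63), with limma adjusted p values of 0.0216, 0.0380 and 0.0141, beside 1.53% of all tested genes. For PFI-3 against DMSO 0 were called in either fit, and 4 and 10 genes had an unadjusted p under 0.05 without and with the block in limma, beside 6.79% and 11.2% of all tested genes. For P+B against PFI-3, 1 was called without the block and 4 with it, namely Src, Spp1, Hbegf and the growth factor Fgf4 (−1.08, limma adjusted p = 0.0232), beside 3.43% of all tested genes. For P+B against BI-9564, 0 were called without the block and 1 with it, Hbegf (−1.17, limma adjusted p = 0.0163), beside 0.802%. Krt18, a trophoblast marker, was lowest with P+B, at 27 and 20 against 103 and 89 under DMSO, while the other trophoblast markers summed to 34 and 35 against 28 and 24. Sparc, a primitive endoderm marker, was at 399 and 326 under P+B against 612 and 466, and the other markers of that list summed to 27 and 34 against 33 and 33. The part of these genes in the changes above was not tested.

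**Figure D5:**
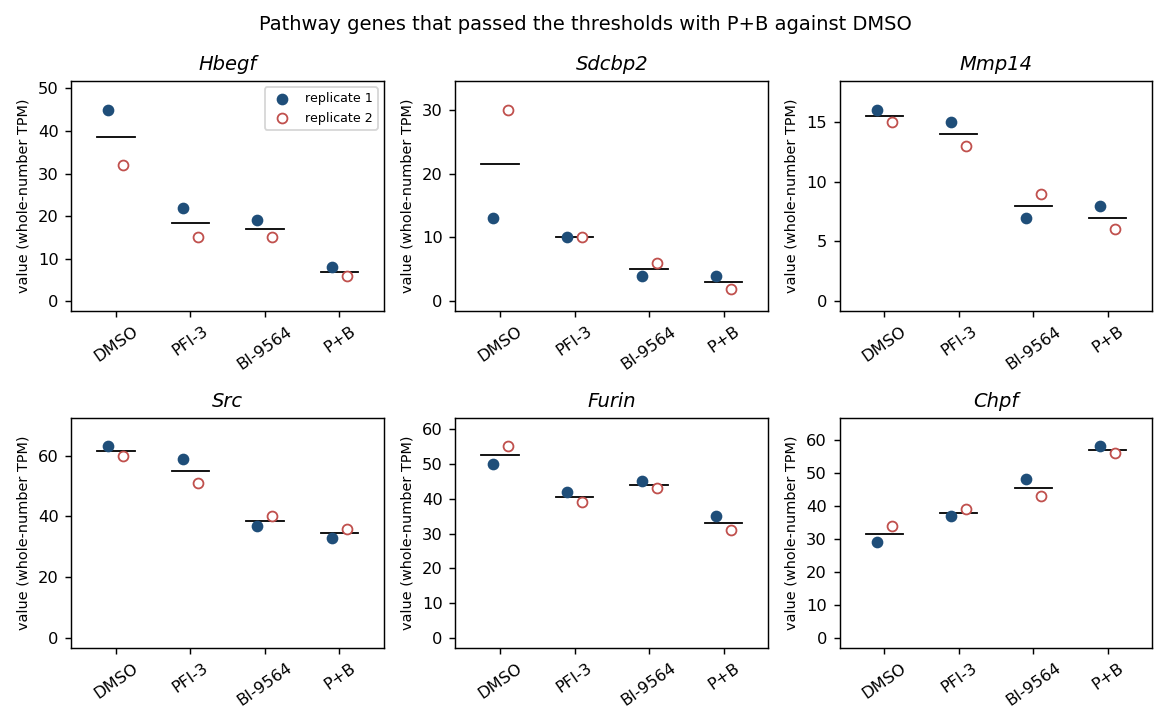
Values (vertical axis, TPM as whole numbers, each panel from 0) of the 6 genes called with P+B against DMSO, in the 4 groups (horizontal axis), with replicate 1 filled, replicate 2 open and the mean as a line. Hbegf goes from 45 and 32 under DMSO to 8 and 6 under P+B, and Chpf from 29 and 34 to 58 and 56.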

How the data were processed

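RNA-seq libraries were made from poly(A)-selected RNA with a VAHTS mRNA-seq kit. The processing notes of the submitters name bcl2fastq, Bowtie2 2.2.5, RSEM 1.3.0 and mm10, without roles. The authors deposited 1 table of 50600 gene names by 8 libraries, in which each value is a score, namely TPM made into whole numbers; whether these were rounded or truncated is not given in the sources used here. They hold no depth, so DESeq2, which the study names, was not used. All 8 columns were used.

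A value of 1 was added before taking log2, and limma 3.58.1 (R 4.3.3; lmFit and eBayes with trend, two-sided) was fitted to the 10222 genes whose mean reached 5. Whole-number values leave some genes with 0 variance, which limma offset. All 4 groups were fitted together, with 4 residual degrees of freedom before moderation, and Benjamini-Hochberg adjustment was made separately for each of 7 comparisons (each treatment against DMSO, between treatments, and the interaction). A second fit added a block for replicate number. In all 6 pairs of groups the differences of replicate 2 and replicate 1 were correlated over genes (Pearson r between 0.143 and 0.236). The second fit therefore takes the replicate numbers, which come from the sample titles, to pair the samples. The first fit ignores this pairing, and treatment results are from the first fit unless the block is named. The fit was checked on simulated data. For the treatment comparisons these were drawn without a difference between replicate numbers, so the check does not cover the pairing.

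The members and the lists were chosen with earlier results of these data known; the lists were written from general knowledge. Named were all members, every list gene past the thresholds and up to 3 of the highest mean in each list; Sdcbp, Msn, Has1, Has2 and Has3 were chosen after their values were seen. Positions are from GENCODE M21 and promoters from RefSeq (GRCm38.p6). The other settings tried were pseudocounts, filters, scalings, a fit without trend, a fit of only the groups compared and leaving out each library.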

Additional observations from a re-analysis of the deposited data

How the results depend on the processing

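No member was called in any of the 7 comparisons under any setting, with or without the replicate block, and their lowest limma adjusted p was 0.127. Of 414 member fold changes recomputed under other settings, 6 changed sign. Quantile normalization gave −0.0217 for Sdc2 with P+B against DMSO, −0.00654 for Gpc4 with BI-9564 against DMSO, −0.0306 for Gpc4 with P+B against PFI-3 and −0.0241 for the Gpc4 interaction. Median centring gave −0.000751 for Gpc4 with BI-9564 against DMSO, and a pseudocount of 5 gave −0.000825 for the Gpc4 interaction. The cause was not tested.

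Leaving out 1 library at a time turned the sign of 36 of 336 member fold changes, and none passed the thresholds. These refits had no replicate block, so in a group left with 1 library the fold change also carried the difference between replicate numbers. Among the tested members that difference was largest for Sdc4 (−0.77) and Gpc4 (−0.65). With P+B against DMSO the values ran from −0.0543 to 0.268 for Sdc1, from −0.825 to 0.186 for Sdc4, from −0.0802 to 0.708 for Gpc1 and from −0.565 to 0.0983 for Gpc4. With PFI-3 against DMSO they ran from −0.992 to 0.0183 for Sdc4, from −0.251 to 0.538 for Gpc1 and from −0.828 to 0.243 for Gpc4. With BI-9564 against DMSO they ran from −0.705 to 0.305 for Sdc4 and from −0.196 to 0.289 for Gpc4. With P+B against PFI-3 they ran from −0.266 to 0.601 for Sdc4 and from −0.476 to 0.595 for Gpc4. With P+B against BI-9564 they ran from −0.469 to 0.229 for Sdc4, from −0.515 to 0.348 for Gpc3 and from −0.611 to 0.0518 for Gpc4. With BI-9564 against PFI-3 they ran from −0.146 to 0.721 for Sdc4, from −0.628 to 0.234 for Gpc3 and from −0.196 to 0.874 for Gpc4. For the interaction they ran from −0.0924 to 0.230 for Sdc1, from −0.138 to 0.872 for Sdc4, from −0.762 to 0.0261 for Gpc1 and from −0.522 to 0.548 for Gpc4. A lone library of a group was assumed to vary like the other groups.

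The pathway counts moved more. For P+B against DMSO the 6 genes became 9 with the replicate block, 3 with no filter, 0 in a fit of only the groups compared and 1 to 4 without 1 library. For P+B against PFI-3 the 1 gene became 4 with the replicate block, 2 with quantile normalization, 0 with a mean of at least 1, no filter, no trend or only the groups compared, and 0 without any 1 library. For BI-9564 against DMSO and P+B against BI-9564 the replicate block gave 3 and 1 in place of 0. No filter meant the 17525 genes above 0 in at least 1 library. Fits with fewer samples have fewer degrees of freedom, and looser filters test more genes. The count of members that differed by replicate number was 1, and 0 with no trend or without both libraries of PFI-3 or of BI-9564. Without counts, depth could not be used to weight the values.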
